A study of Mus musculus with 21 samples.

Results

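The homeostatic lymphoid chemokines and their receptors are described here by 8 genes, of 32285 counted in every cell. They are the ligands *Cxcl13*, *Cxcl12*, *Ccl19* and *Ccl21a*, the receptors *Cxcr4*, *Cxcr5* and *Ccr7*, and the atypical receptor *Ackr3*. The genes were chosen by name, with earlier results of these data known. *Cxcl13* was included for its level in metastasis fibroblasts, so that level is given as a description without a test. So are the levels of all 8 genes by cell type.

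The cells came from mT/mG mice, in which every host cell carries a membrane-bound tdTomato and no Cre was used, so that all host cells stayed red. MT-ret melanoma fragments, derived from a mouse line with a *Ret* transgene, were placed under the skin of young adult mice of both sexes. The primary tumors were resected and lung metastases developed later. There were 5 groups. The host cells of metastasis-bearing lung and of the primary tumor are called the metastasis and the primary tumor microenvironment (TME), unchallenged lung came from mT/mG mice without melanoma, and malignant melanoma (MM) cells without tdTomato were sorted from either site. All melanoma came from 1 transplanted line, metastasis samples held some adjacent lung, and the age of the mice and the time of sampling per library are not given in the labels. The 16 libraries held 100359 cells once identical libraries were counted once. They comprised 4 libraries of the metastasis TME, 4 of the primary tumor TME, 4 of unchallenged lung and 2 of MM cells from either site. Samples labeled replicates 1-3 are used as 1 library each. Their cells carry 1 name per mouse (mice 2 and 3 for metastasis, mice 1, 2 and 3 for primary tumor) and were summed.

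Homeostatic chemokines are made without inflammation and place lymphocytes and other leukocytes in tissues. CXCL13 binds CXCR5 and draws B cells into follicles, and CCL19 and CCL21 bind CCR7 and guide T cells and mature dendritic cells through lymphatic vessels to the T cell zone of lymph nodes. CXCL12 binds CXCR4, which retains neutrophils and progenitors in bone marrow, and ACKR3 takes up CXCL12 without signaling through G proteins. In organized lymphoid tissue, stromal cells make most of these ligands under the control of the lymphotoxin beta receptor and noncanonical NF-κB.

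Each value is a number of unique molecular identifiers (UMIs), where 1 UMI stands for 1 captured RNA molecule, or that number scaled to the total UMIs of the same cells in the usual unit CPM. Total depth was 1777036 to 60339415 UMIs per library. Among kept library names 1105 barcodes occurred more than once, and none of these pairs had equal counts. The 5 library names that repeated another carried other mouse numbers for the same cells, so the animal behind replicates 5 and 6 is uncertain. The library used as metastasis TME replicate 6 also occurred under a metastasis MM name. Only 12 of its 1036 cells were MM cells, and 320 were in an unnamed class described below. It was kept as TME, and the fitted differences of metastasis without it are given beside the results. The sequencing run followed the replicate number: replicates 1-3 were run 1, replicate 4 was run 2, and replicates 5 and 6 were run 3. Part of the samples was depleted of CD45-positive leukocytes before sequencing, and the gate of a single library is not given, so the numbers of leukocytes were not compared. Among the TME and lung libraries, replicates 5 and 6 of the metastasis TME and replicates 4, 5 and 6 of primary tumor TME and unchallenged lung had at least 20 fibroblasts, the least number used for a level. Sorted metastasis MM replicate 5 held 22 more, which entered no comparison of fibroblasts.

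*Cxcl13* lies on chromosome 5 of GRCm38 (chr5:95956951-95961068, plus strand) and has a single annotated transcript. The 130 bases before its RefSeq start (RefSeq, GRCm38.p6, chr5:95956809-95956938, plus strand) are shown because *Cxcl13* carries the main pattern of these data and because the noncanonical NF-κB gene *Relb* is among the genes tested below. Capitals mark GGAGATTTG, the core of the noncanonical NF-κB element described for this promoter, and a TATAAA box.
Cxcl13 promoter: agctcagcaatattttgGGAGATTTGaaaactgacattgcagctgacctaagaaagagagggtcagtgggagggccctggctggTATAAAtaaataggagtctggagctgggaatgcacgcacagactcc
The first motif begins 113 bases and the second 46 bases before the start. On either strand and over windows from 250 bases before to 50 bases after a start, GGAGATTTG occurred in 83 of 32851 promoters (0.253%) and, among the 6 of 8 genes with a promoter in the table, only in that of *Cxcl13*. TATAAA occurred in 13.6% of promoters, among them those of *Cxcl13*, *Cxcr4* and *Ackr3*. A match is a description of these letters and does not show that a factor binds.

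Among metastasis fibroblasts, nearly all *Cxcl13* was in 1 of 13 fibroblast subclusters. This subcluster, F6, raised 11 of 12 mesothelial markers used for naming and all 6 genes of the metastasis fibroblast signature taken from the study (*Clu*, *Cxadr*, *Lgals7*, *Calca*, *Wnt4* and *Wt1*), and by the naming rule it is called mesothelial-like. Mesothelial cells line the lung surface and the chest wall and are not fibroblasts by origin. The name follows marker lists only, and whether these cells are mesothelium was not tested. Of 889 *Cxcl13* UMIs in 501 metastasis fibroblasts, the 250 mesothelial-like cells held 884, or 99.4% (exact 95% binomial interval 98.7 to 99.8%, over UMIs rather than cells). The 501 cells are those of the fibroblast class. An unnamed class with 1063 metastasis TME cells, led by *Col2a1* and *Col27a1* and with *Saa3* among its 10 leading genes, lies outside it. The share does not cover that class, whose *Cxcl13* is not given here. Over all cell types, metastasis replicates 5 and 6 held 963 and 116 *Cxcl13* UMIs, of which 785 and 104 were in the fibroblast class. The peribronchial-like subcluster F11 held 3 and the alveolar-like subcluster F8 held 2. Pericyte-like, advential-like and ECM-like cells of metastases held 0, as did 3 further subclusters with 5 or 6 metastasis cells each. Both metastasis libraries with enough cells had nearly all of it in mesothelial-like cells, although replicate 6 rests on 4 cells and held only 22 other fibroblasts. Mesothelial-like cells held 780 of 785 UMIs in replicate 5 and 104 of 104 in replicate 6, and the remaining metastasis fibroblasts of replicate 5 had 6.97 CPM.

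**Figure D1:**
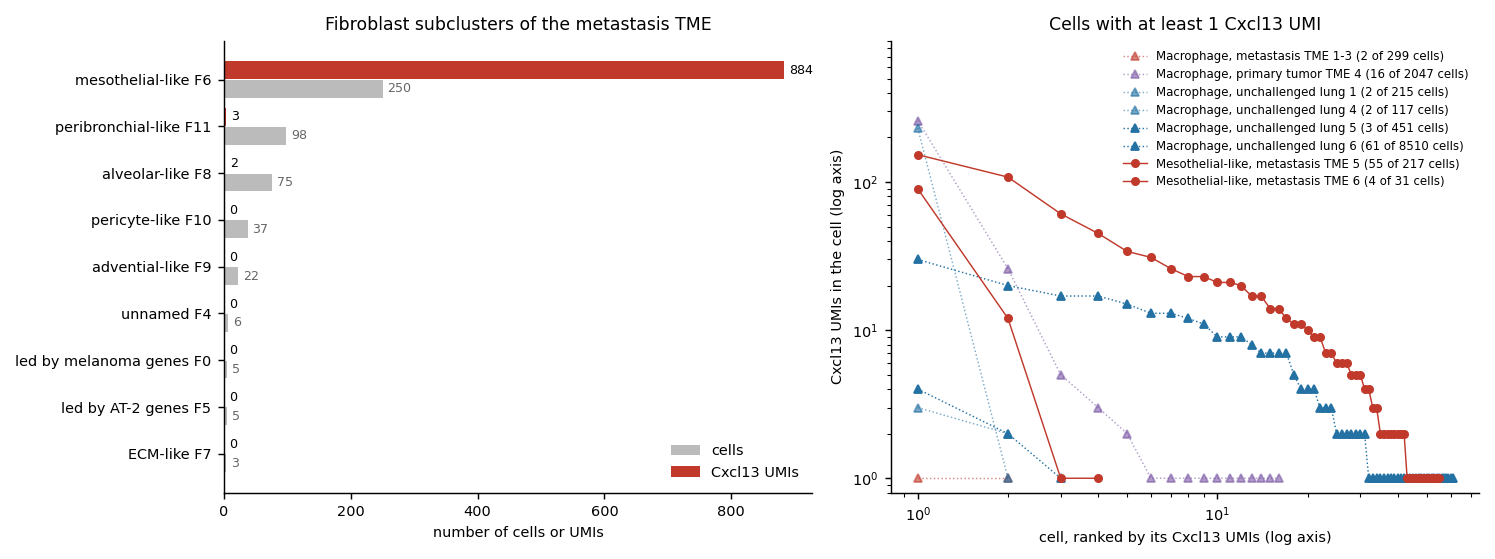
Left, number of cells (grey) and of *Cxcl13* UMIs (red) in each fibroblast subcluster of the metastasis TME. Right, *Cxcl13* UMIs per cell (log axis) against the rank of the cell (log axis) for mesothelial-like cells (circles) and macrophages (triangles) of single libraries, cells with at least 1 UMI only. Of 889 UMIs 884 are in subcluster F6. The highest mesothelial-like cell has 153 UMIs. The highest macrophage, of primary tumor replicate 4, has 260, while no macrophage of lung replicate 6 exceeds 30.

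The *Cxcl13* level of mesothelial-like cells was 719 CPM in metastasis replicate 5 (217 cells) and 505 CPM in replicate 6 (31 cells), against 9.38 CPM in unchallenged lung replicate 6 (51 cells). The lung value rests on 1 UMI, with an exact Poisson interval from 0.237 to 52.2 CPM that covers counting error only. The metastasis libraries are both above this interval, but only a single lung library had at least 20 such cells, so the contrast has no replicate on the lung side. The cells of metastasis and lung under this name also differed in other genes, as given below. Primary tumors held 6 mesothelial-like cells with 2 UMIs. Over all fibroblasts, *Cxcl13* was at 436 and 364 CPM in metastasis replicates 5 and 6, at 0, 0 and 0.403 CPM in primary tumor replicates 4, 5 and 6, and at 0, 1.98 and 5.72 CPM in unchallenged lung replicates 4, 5 and 6. The 2 metastasis libraries were thus higher than all 6 others, which is the pattern the gene was chosen for.

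Within the mesothelial-like cells *Cxcl13* was unevenly spread. In metastasis replicate 5, 162 of 217 cells had no UMI, 30 cells had at least 5, and the highest cell had 153. The 22 highest cells of that library held 88.5% of its mesothelial-like *Cxcl13*. In replicate 6 only 4 of 31 cells had a UMI, and 1 of them had 90 of the 104. A few cells therefore set the level in either library, and the level of replicate 6 rests almost entirely on 1 cell. With each cell thinned to 1000 UMIs, 17.1% of mesothelial-like cells of replicate 5 kept a *Cxcl13* UMI (exact interval 12.3 to 22.7%; 25.3% unthinned, median depth 3594 UMIs). MM cells of the same library, which should lack the gene, gave 0.658% thinned and 3.70% unthinned at a median depth of 9102 UMIs. *Cxcl13* UMIs in other types of this library, such as 12.1 CPM in alveolar type 2 (AT-2) cells and 19.1 CPM in aerocyte capillary cells, were also rare and came mostly as single molecules, and shares near that of MM cells were read as background.

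Metastasis mesothelial-like cells with a *Cxcl13* UMI differed in their markers from those without. They were poorer in the mesothelial surface genes and richer in *Calca* and *Cxcl12*. *Msln*, which encodes mesothelin, was detected in 1.69% of the 59 cells with *Cxcl13* and in 26.2% of the 191 cells without. *Upk1b* was detected in 1.69% and 23.0%, *Upk3b* in 15.3% and 35.1%, *Lrrn4* in 6.78% and 23.0%, and *Muc16* in 0 of 59 cells (which allows a share of up to 5.08%) and 16.2%. Of the signature genes, *Wt1*, a transcription factor of mesothelium, was at 49.2% and 46.1%, *Clu* at 71.2% and 70.7%, *Lgals7* at 25.4% and 39.3%, and *Wnt4* at 54.2% and 61.3%, while *Calca*, the gene of calcitonin and its related peptide, was at 54.2% and 16.8%. *Cxcl12* was at 64.4% and 35.6%. *Col1a1* was detected in all 59 cells with *Cxcl13* and in 91.1% of the rest. The cells with *Cxcl13* were deeper (median 5360 against 3846 UMIs), and the part of depth in these shares was not tested. In replicate 5 alone *Msln* was at 1.82% and 24.1% and *Calca* at 54.5% and 14.8%. Of these cells 217 come from replicate 5, 31 from replicate 6 and 2 from replicates 1-3, and the clustering used these genes, so no test is given.

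**Figure D2:**
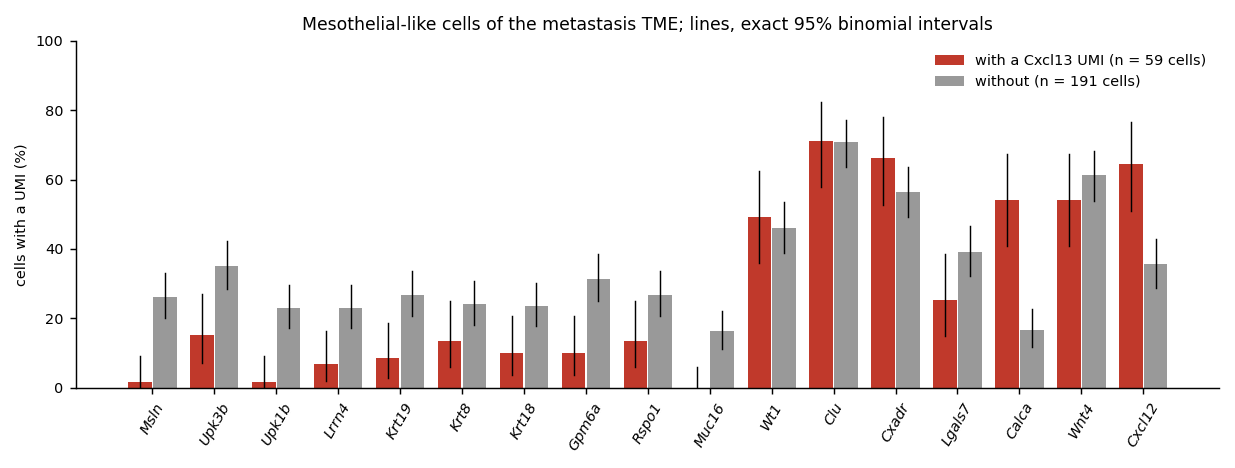
Share of metastasis mesothelial-like cells with at least 1 UMI of each marker gene (percent, axis from 0), for the 59 cells with a *Cxcl13* UMI (red) and the 191 without (grey). Lines are exact 95% binomial intervals over cells, which cover counting error only. *Msln*, *Upk1b* and *Muc16* are at 1.69%, 1.69% and 0 in cells with *Cxcl13*, while *Calca* reaches 54.2% against 16.8%.

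The placement of *Cxcl13* held under other clusterings, while the name of its subcluster did not. At resolution 0.3 a single mesothelial subcluster held 883 of the 889 UMIs. At resolution 1.0 the subcluster divided: 249 metastasis cells with all 884 UMIs fell in a subcluster that raised all 6 genes of the metastasis fibroblast signature and all 12 mesothelial markers, with *Wt1*, *Lgals7* and *Calca* of the signature among its 10 leading genes, beside 12 lung cells with 0 UMIs, while 50 lung cells and 1 metastasis cell formed a subcluster that raised 9 of the 12 mesothelial markers, was named mesothelial and held 1 UMI, from lung. Clustering without the 8 genes divided them in the same manner, with 883 UMIs in the signature subcluster. The metastasis mesothelial-like cells also differed from those of lung in genes outside the 8. *Wnt4*, a secreted Wnt ligand, was at 490 CPM and *Calca* at 337 CPM in metastasis, against 2 and 0 UMIs in lung, and *Msln* and *Upk3b* were at 400 and 342 CPM, against 1068 and 1416 CPM in lung. Of the mesothelial list, only *Krt18*, *Krt8* and *Wt1* were higher in metastasis, at 211, 207 and 181 CPM against 58.1, 131 and 167 CPM in lung. Of the fibroblast list, *Col1a1*, *Col3a1* and *Mgp* were at 3153, 5048 and 16861 CPM in metastasis, against 167, 777 and 1823 CPM in lung. Only *Clec3b* of that list was lower in metastasis, at 92.2 against 487 CPM. *Ccl19* had 0 UMIs in mesothelial-like cells of either tissue and *Ccl21a* had 1.

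Macrophages were the second source of *Cxcl13*. Of all *Cxcl13* UMIs in the series, 41.9% were in mesothelial-like cells and 39.9% in macrophages. Primary tumor replicate 4 had 308 macrophage UMIs, but 1 cell held 260 of them. Unchallenged lung replicate 1 had 232, of which 1 cell held 231. Unchallenged lung replicate 6 had 281 UMIs in 61 cells, with no more than 30 in any of them, and macrophages of the metastasis libraries held at most 2. The single cells with the highest counts carried macrophage RNA: that of lung replicate 1 had 116 UMIs of *C1qa*, a complement gene of tissue macrophages, and that of primary tumor replicate 4 had 90. In lung replicate 6, *C1qa* was detected in 80.3% of the 61 macrophages with *Cxcl13* and in 7.81% of the 8449 without, and the class II gene *H2-Eb1* in 80.3% and 29.2%. *Chil3*, a marker of alveolar macrophages, was detected in 67.2% and 82.9%. In lung, *Cxcl13* was thus found mainly in *C1qa*-bearing macrophages: the subcluster with *Tmem119*, *C1qa* and *C1qb* among its leading genes held 196 of the 281 UMIs in replicate 6 in 227 cells. One droplet of the B cell class in lung replicate 4 carried 66 *Cxcl13* UMIs together with 76 of *C1qa* and 21 of *Cd79a*. Doublets were not removed.

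*Cxcr5*, the receptor of CXCL13, was a B cell gene here. In B cells it was at 58.0, 87.2, 111 and 39.3 CPM in unchallenged lung replicates 1, 4, 5 and 6, at 0 and 88.7 CPM in metastasis TME replicates 1-3 and 4, and at 102 CPM in the 86 B cells of the metastasis MM library of replicate 4. An unnamed class of 31 cells had 57.2 CPM in its 30 cells of lung replicate 4. T cells had 0 to 8.67 CPM, and the ranges of the 2 types overlap only through the B cells of metastasis replicates 1-3. After thinning, 5.99% of B cells and 0.298% of T cells had a *Cxcr5* UMI, at median depths of 1636 and 2437 UMIs. Ciliated and club cells, which should lack the gene, gave 0.395% and 0.315% at 1740 and 2135 UMIs. Most of those cells were from lung replicate 6 (7145 of 8003 and 1409 of 1619), and most T cells were from other libraries. The share of T cells was not told apart from background by this comparison.

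*Cxcl12* (chr6:117168535-117181367, plus strand, GRCm38) was the most widely expressed ligand, and endothelial cells held the highest levels. Capillary endothelial cells had 59.5% of its UMIs, with 417 to 863 CPM and a median of 618 over 8 libraries. Arterial endothelial cells of unchallenged lung had 2844, 207 and 654 CPM in replicates 4, 5 and 6. Their range covers that of capillary cells, so the order of these types is not resolved. Among named types, mesothelial-like cells followed with 325 and 306 CPM in metastasis replicates 5 and 6 but 9.38 CPM, from 1 UMI, in lung replicate 6. Venous endothelial cells had 163 to 245 CPM and a median of 197 over 4 libraries. Aerocytes, the capillary cells of gas exchange marked by *Car4* and *Ednrb*, had only 7.94 to 86.0 CPM and a median of 18.7 over 6 libraries. Their highest value lies under the lowest of capillary cells. After thinning, 33.2% of capillary cells but 1.26% of aerocytes had a *Cxcl12* UMI, at median depths of 3121 and 2838 UMIs. Ciliated and club cells gave 1.24% and 1.32%, but most of them were from lung replicate 6 and most aerocytes were not. *Cxcl12* in aerocytes was therefore not told apart from background by this comparison.

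**Figure D3:**
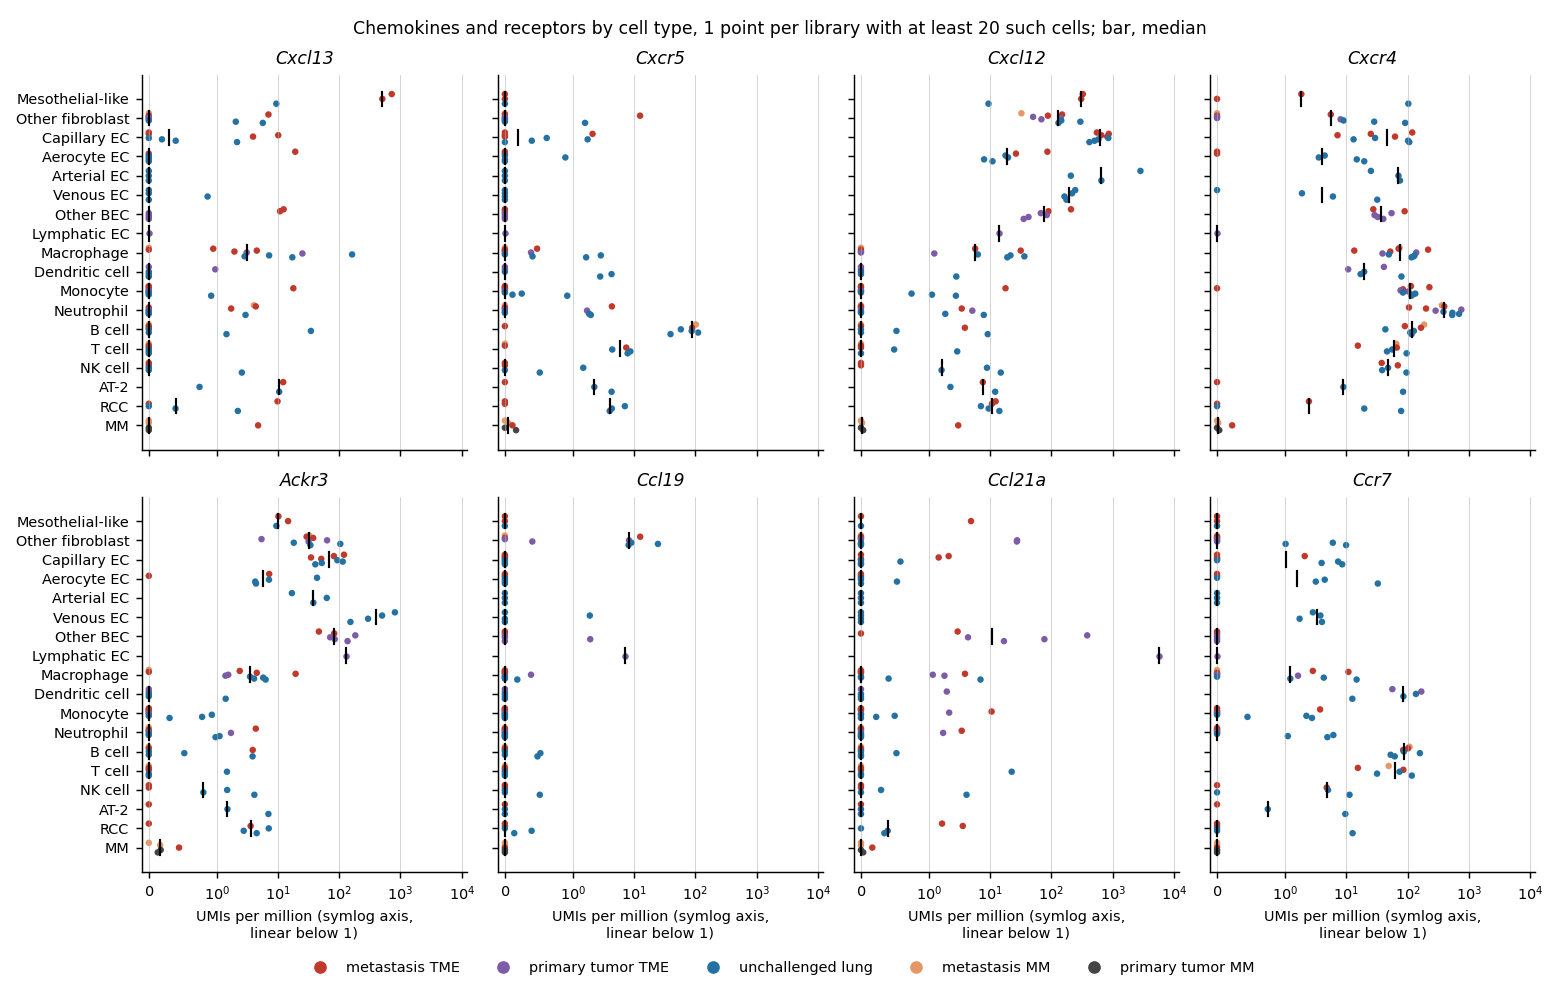
Level of each of the 8 genes (CPM, symmetric log axis that is linear near 0) by cell type. Each point is 1 library with at least 20 cells of the type, colored by group, and the bar is the median over libraries. *Cxcl13* stands out in metastasis mesothelial-like cells, *Cxcl12* in capillary and arterial endothelium, *Ccl21a* in lymphatic endothelium, *Cxcr4* in neutrophils, *Cxcr5* in B cells, *Ackr3* in venous endothelium, and *Ccr7* in dendritic, B and T cells.

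Among fibroblast subclusters other than the mesothelial-like one, advential-like cells, the fibroblasts around vessels and airways that carry *Pi16*, had high *Cxcl12*. They had 314 CPM in metastasis replicate 5, and 391.5 and 463 CPM in unchallenged lung replicates 5 and 6. Alveolar-like cells had 209 CPM in metastasis replicate 5 and 20.8, 118 and 184 CPM in lung replicates 4, 5 and 6. In primary tumors the ECM-like subcluster F12 had 306 and 220 CPM in replicates 5 and 6, while ECM-like F7 had 66.3 and 104 CPM in replicates 4 and 6 and pericyte-like cells of replicate 4 had 0. Of the 538 *Cxcl12* UMIs of metastasis fibroblasts, 77.3% were in mesothelial-like cells, which were 250 of the 501 cells. In replicate 5 their level of 325 CPM was close to the 314 CPM of advential-like cells, so *Cxcl12* was not confined to them.

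In sums of the blood endothelial class *Cxcl12* was higher in the metastasis TME than in the primary tumor TME, but the class held unlike subclusters at these sites. It excludes the separate capillary and aerocyte classes. In metastasis replicates 4, 5 and 6, 6 of 24, 599 of 624 and 71 of 102 of its cells were in subclusters that raised melanoma markers. In primary tumor replicates 1-3, 4, 5 and 6, 19 of 43, 97 of 127, 82 of 116 and 221 of 256 were in subclusters that raised fibroblast markers. A subcluster of 290 cells that raised fibroblast markers had 0 of them among its 10 leading genes and raised 3 of 6 venous markers. One of 350 cells that raised melanoma markers also had 0 of them there and raised 2 of 8 blood endothelial markers. Whether these subclusters hold endothelial cells was not tested. Lung cells of the class were almost all in subclusters named endothelial, at 92.4 to 98.3% per library. The *Cxcl12* of the class was 327, 207 and 86.1 CPM in metastasis replicates 4, 5 and 6, and 64.1, 74.6, 46.8 and 47.7 CPM in primary tumor replicates 1-3, 4, 5 and 6. The 2 groups do not overlap, although metastasis replicate 6 lies close to the highest primary tumor. The log2 difference was 1.80 (SE 0.40, edgeR quasi-likelihood test, Benjamini-Hochberg adjusted p = 0.0146). Of all genes tested in this comparison 4.03% were called at an adjusted p under 0.05, and of the 4 members tested 1 was. The direction was the same under all 19 alternatives, but the call was lost without metastasis replicate 5 (adjusted p = 0.0802), without primary tumor replicate 5 (0.0623) or 6 (0.0601), and within sequencing run 3 alone (log2 difference 1.69, 0.0550). Without metastasis replicate 6 the log2 difference was 2.19 (adjusted p = 0.00210). In the cells of subclusters named endothelial alone, in libraries with at least 10 of them, *Cxcl12* was at 437, 191 and 78.1 CPM in metastasis and 55.2, 10.0, 59.9 and 165 CPM in primary tumor, which overlap, and the difference of 1.63 did not pass (edgeR adjusted p = 0.184). Lymphatic cells were the majority of these in every primary tumor library and a minority in each metastasis library, so unlike cells were compared. The summed capillary marker list moved with this result, at 4650 to 7983 CPM in metastasis and 2726 to 3063 CPM in primary tumor with at least 6 of its 7 genes found in every library, and so did the venous list, at 1305 to 5550 and 1293 to 1868 CPM. The melanoma list was at 644 to 9430 and 479 to 2242 CPM and the fibroblast list at 722 to 1424 and 851 to 2461 CPM, both with overlap. The part of these lists in the result was not tested.

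Against unchallenged lung, *Cxcl12* of this class overlapped, at 322, 423, 172 and 278 CPM in replicates 1, 4, 5 and 6, with a log2 difference of −0.51 for metastasis minus lung (SE 0.38, adjusted p = 0.450), and −0.10 without metastasis replicate 6 (0.899). In the fibroblast class *Cxcl12* was at 255 and 245 CPM in metastasis replicates 5 and 6, at 49.8, 141 and 68.7 CPM in primary tumor replicates 4, 5 and 6, and at 145, 289 and 127 CPM in lung replicates 4, 5 and 6. Both metastasis libraries lay above the 3 primary tumors, but the log2 difference of 1.53 (SE 0.52) did not pass (edgeR, adjusted p = 0.277), nor did the 1.56 without metastasis replicate 6 (0.559). The differences of metastasis minus lung (0.47, SE 0.52, adjusted p = 0.672, and 0.55 without metastasis replicate 6, 0.704) and of primary tumor minus lung (−1.06, SE 0.48, adjusted p = 0.185) did not pass either. The class as fitted holds subclusters led by genes of other cell types. In primary tumor replicate 6, 1421 of 2052 cells were in the subcluster led by melanoma genes, and in lung replicate 6, 676, 522 and 339 of 2400 were in those led by ciliated cell, macrophage and AT-2 genes. Without such subclusters the 3 differences were 1.43, 0.46 and −0.97, and none passed. Without the mesothelial-like cells the metastasis minus lung difference turned to −0.63.

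In sums of the macrophage class *Cxcl12* was lower in primary tumors than in lung, at levels near background. It was at 0 and 1.13 CPM in primary tumor replicates 1-3 and 4 and at 5.90, 18.6, 33.4 and 18.5 CPM in unchallenged lung replicates 1, 4, 5 and 6, without overlap. The edgeR log2 difference was −4.31 (SE 0.98, adjusted p = 0.0111), where 15.2% of all genes tested were called and 1 of the 5 members tested was. The call was lost without either primary tumor library (adjusted p = 0.104 without replicates 1-3 and 0.0821 without replicate 4). The capillary marker list in these macrophage sums was at 89.7 to 92.6 CPM in primary tumor, with 5 or 6 of its 7 genes found, and at 158 to 761 CPM in lung, with all 7 found. Its part in the result was not tested. The class held unlike cells in the 2 tissues. Subclusters named macrophage held 87.9 and 88.2% of it in primary tumor and 17.1 to 32.2% in lung, where 3203 of 8818 cells of replicate 6 were in an unnamed subcluster led by *Fibin*, *Slco2a1* and *Kdr*, genes of endothelium, against 0 in primary tumor. In the subclusters named macrophage alone, *Cxcl12* was at 0 and 1.26 CPM in primary tumor and at 0, 0, 18.5 and 7.63 CPM in lung, which overlap, and it was too low to be tested. Over all libraries 2.59% of macrophages and 2.62% of ciliated cells had a *Cxcl12* UMI, at median depths of 1790 and 1740 UMIs.

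*Cxcr4* (chr1:128588199-128592293, minus strand), the signaling receptor of CXCL12, was highest in neutrophils. Their levels ran from 106 to 756 CPM with a median of 393 over 10 libraries. B cells (median 117 over 7 libraries), monocytes (109 over 10) and macrophages (74.2 over 11) followed with overlapping ranges. After thinning, 35.5% of neutrophils, 12.3% of B cells and 9.45% of macrophages had a *Cxcr4* UMI. Ciliated, AT-2 and club cells, which should have little, gave 6.89%, 6.82% and 6.43%, mostly from lung replicate 6, where they had 68.6 to 84.6 CPM and macrophages 115 CPM. In the other libraries with at least 20 cells these types had 0 to 19.7 CPM, against 13.5 to 217 CPM in macrophages. Neutrophils of metastasis replicates 5 and 6 had 106 and 201 CPM, below the 387 to 696 CPM of the 4 lung libraries, while those of metastasis replicates 1-3 had 399 CPM. No comparison of neutrophils between tissues was fitted. In macrophages *Cxcr4* was at 132 and 36.9 CPM in primary tumor and 47.9 to 123 CPM in lung, with a log2 difference of −0.07 (SE 0.62, edgeR adjusted p = 0.957).

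*Cxcr4* in fibroblast sums was at 9.04, 27.8 and 91.8 CPM in lung replicates 4, 5 and 6 and at 0, 0 and 8.05 CPM in primary tumor replicates 4, 5 and 6 (edgeR log2 difference of primary tumor minus lung −3.45, SE 1.02, adjusted p = 0.0586). The neutrophil marker list in the same sums was at 3.01 to 6492 CPM in lung and 5.24 to 47.1 CPM in primary tumor, with overlap, and the macrophage list was at 2118 to 8752 CPM in lung and 101 to 1486 CPM in primary tumor. Of these lists the macrophage list separated the groups, as did the B cell list given below for *Ltb*. The part of neither list was tested. Within lung replicate 6, *Cxcr4* was near 100 CPM in several unlike subclusters: 106 CPM in the unnamed F1, 106 CPM in the one led by macrophage genes, 103 CPM in mesothelial-like cells and 93.3 CPM in the one led by ciliated cell genes.

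*Ackr3* (chr1:90203980-90216751, plus strand), the scavenger of CXCL12, was mainly endothelial and highest in veins. Venous cells of unchallenged lung had 810, 500, 296 and 152 CPM in replicates 1, 4, 5 and 6. *Ackr3* was among the leading genes of a venous subcluster, and endothelial cells were not clustered without it. The other cells of the blood endothelial class had 46.4 to 183 CPM (median 83.5 over 6 libraries) and capillary cells had 34.5 to 119 CPM (median 66.8 over 8), so that venous and other cells overlap at their edges. Arterial cells had 16.8 to 62.5 CPM. After thinning, 29.4% of venous and 7.29% of capillary cells had an *Ackr3* UMI, against 1.10% of aerocytes, 0.710% of AT-2 cells and 0.504% of club cells. Among fibroblasts it was at 146 to 160 CPM in the advential-like cells of metastasis replicate 5 and lung replicates 5 and 6, and at 115 and 179 CPM in the ECM-like F12 of primary tumor replicates 5 and 6. Alveolar-like cells had 14.2 CPM or less. *Ackr3* was thus high in advential-like and F12 cells, which also had *Cxcl12*, and at 9.38 to 14.6 CPM in mesothelial-like cells of the 3 libraries with at least 20 of them.

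In sums of the blood endothelial class *Ackr3* was lower in metastasis than in unchallenged lung. It was at 164, 45.6 and 113 CPM in metastasis replicates 4, 5 and 6 and at 685, 434, 245 and 122 CPM in lung replicates 1, 4, 5 and 6, where the highest metastasis lies above the lowest lung. The edgeR log2 difference was −1.91 (SE 0.52, adjusted p = 0.0325), where 8.41% of all genes tested were called and 1 of the 4 members tested was. The direction was the same under all 19 alternatives. In the cells of subclusters named endothelial alone the difference of −1.33 did not pass (edgeR adjusted p = 0.276). Lymphatic cells were a larger part of these cells in metastasis replicates 5 and 6 than in any lung library. The call was also lost without metastasis replicate 5 (adjusted p = 0.251) or 6 (0.0614), without lung replicate 1 (0.0733) or 4 (0.0559), and within run 3 alone (log2 difference −1.33, 0.0640). It was lost as well with the replicate number as a block, as given below. The venous marker list in these sums was at 1305 to 5550 CPM in metastasis and 6106 to 7340 CPM in lung, with all 6 genes found in every library and no overlap. The melanoma list, given below for *Mif*, also separated these groups and was higher in metastasis. In metastasis replicates 4, 5 and 6, 6 of 24, 599 of 624 and 71 of 102 cells of the class were in subclusters that raised melanoma markers. The part of either list in the result was not tested. Against primary tumor, at 165, 75.9, 90.8 and 132 CPM in replicates 1-3, 4, 5 and 6, the difference was −0.25 (SE 0.52, adjusted p = 0.937), and −0.44 without metastasis replicate 6 (0.854).

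**Figure D4:**
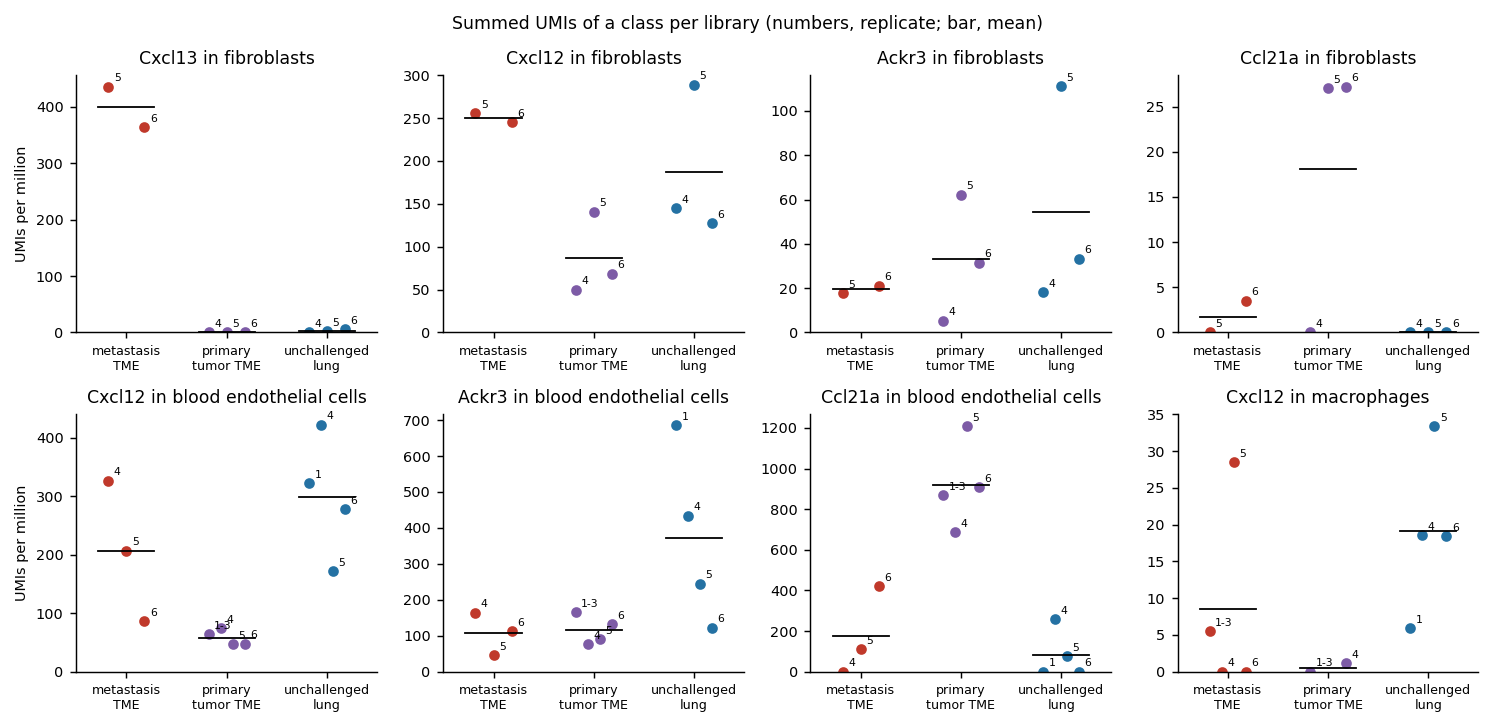
Level (CPM of the class) of *Cxcl13*, *Cxcl12*, *Ackr3* and *Ccl21a* in fibroblasts, of *Cxcl12*, *Ackr3* and *Ccl21a* in blood endothelial cells and of *Cxcl12* in macrophages. Each point is 1 library, the number is its replicate, and the bar is the mean. In the blood endothelial class *Cxcl12* is at 86.1 CPM or more in all 3 metastases and at 74.6 CPM or less in all 4 primary tumors. The class held unlike subclusters at these sites, many of them raising melanoma or fibroblast markers. In the subclusters named endothelial alone the values overlap.

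*Ccl21a* (chr4:42772860-42773993, minus strand) was the marker of a small group of lymphatic endothelial cells. These 77 cells, with *Prox1* in 90.9% and *Mmrn1* in 93.5% of them, held 3290 of the 3821 UMIs (86.1%) at 7732 CPM. Of these cells 84.4% had a *Ccl21a* UMI, and 75.3% after thinning, while 0 of 3349 thinned capillary cells did, which allows a share of up to 0.0896%. *Ccl21a* was itself the first leading gene of this subcluster, and endothelial cells were not clustered without it, so these shares carry no test. By library they held 190 UMIs in 7 cells and 171 in 9 in metastasis replicates 5 and 6. In primary tumor replicates 1-3, 4, 5 and 6 they held 127 UMIs in 7 cells, 540 in 9, 811 in 21 and 1180 in 17. In lung replicates 4 and 5 they held 138 and 115 UMIs in 3 cells each. Only primary tumor replicate 5 reached 20 cells, at 5721 CPM, so the tissues were not compared within this type. The capillary class had *Lyve1* in 63.3% of cells but *Prox1* in 0.0286% and *Reln* in 0 of 3494, which allows up to 0.0859%. The nearly identical gene copies *Ccl21b* and *Ccl21c* had 0 UMIs in the series. Reads that match several copies may be lost in counting, so *Ccl21a* levels are uncertain and may be too low.

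In sums of the whole blood endothelial class, *Ccl21a* was at 0, 111 and 421 CPM in metastasis replicates 4, 5 and 6, at 870, 687, 1209 and 909 CPM in primary tumor replicates 1-3, 4, 5 and 6, and at 0, 257, 77.5 and 0 CPM in lung replicates 1, 4, 5 and 6. All 4 primary tumors lay above all metastases, but the difference of metastasis minus primary tumor did not pass (log2 −2.26, SE 0.97, edgeR adjusted p = 0.281), nor did the −3.48 without metastasis replicate 6 (0.145). In fibroblast sums it was at 0, 27.0 and 27.2 CPM in primary tumor replicates 4, 5 and 6 and at 0 in all 3 lung libraries (edgeR adjusted p = 0.0565 for primary tumor minus lung). The lymphatic marker list in those sums was at 387 to 488 CPM in primary tumor and 51.2 to 139 CPM in lung, and its part in the result was not tested.

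*Ccl19* (chr4:42754525-42756577, minus strand) was nearly absent. It had 99 UMIs in the whole series, of which 84 were in fibroblasts other than mesothelial-like cells. Advential-like cells had 23.6 CPM in metastasis replicate 5 and 20.9 and 38.1 CPM in lung replicates 5 and 6. Alveolar-like cells had 14.9 CPM in metastasis replicate 5 and 8.34, 46.3 and 14.2 CPM in lung replicates 4, 5 and 6. It was too low to be tested between tissues in any class.

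*Ccr7* (chr11:99144196-99155077, minus strand), the receptor of CCL19 and CCL21, was found in B cells, dendritic cells and T cells at levels that overlap. B cells had 53.0 to 159 CPM (median 87.0 over 7 libraries), dendritic cells 12.6 to 168 (85.6 over 5) and T cells 15.4 to 118 (61.7 over 6). The next named type by median, NK cells, had at most 11.3 CPM, below the lowest T cell value. After thinning, 7.68% of B cells, 8.45% of T cells and 3.49% of dendritic cells had a *Ccr7* UMI, against 1.10% of ciliated, 0.882% of club and 0.852% of AT-2 cells. In the dendritic cells the receptor marked a distinct minority. Of 701 dendritic cells 40 had a *Ccr7* UMI. *Fscn1*, the actin bundler of mature dendritic cells, was detected in 24 of these 40 and in 7 of the other 661, *Cacnb3* in 67.5% and 0.908%, and *Ccl22* in 45.0% and 2.87%. Of the 7 conventional markers 5 were lower in cells with *Ccr7*, with *Xcr1* at 7.5% and 32.1%, *Itgae* at 0 of 40 (which allows up to 7.5%) and 26.8% and *Wdfy4* at 15.0% and 53.6%. The other two were higher, *Flt3* at 52.5% and 35.7% and *Zbtb46* at 10 of 40 and 19.4%. The cells with *Ccr7* were deeper, with a median of 3804.5 against 2049 UMIs, and the part of depth in the higher shares was not tested. *Ccr7* was among the genes of the clustering, so these shares carry no test.

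**Figure D5:**
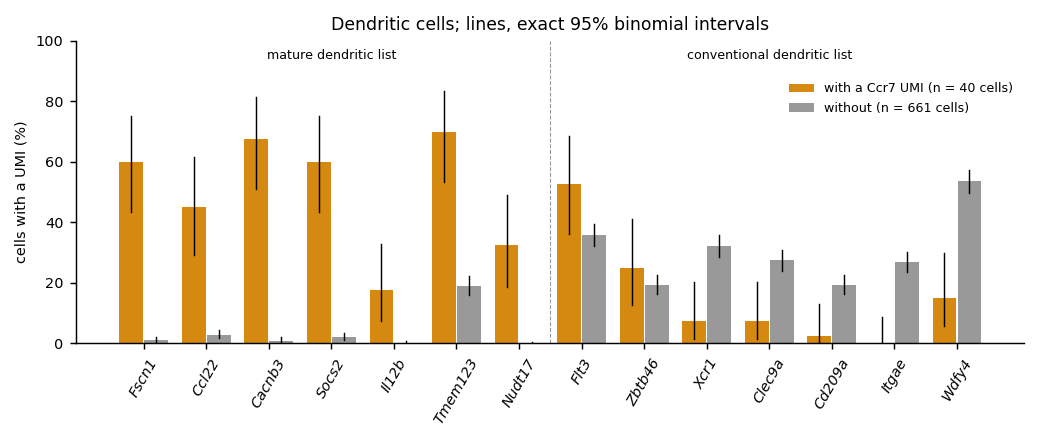
Share of dendritic cells with at least 1 UMI of each gene of the mature list (left of the line) and the conventional list (right), in percent with the axis from 0, for the 40 cells with a *Ccr7* UMI (orange) and the 661 without (grey). Lines are exact 95% binomial intervals over cells, which cover counting error only. All 7 mature genes are higher in cells with *Ccr7*, and *Xcr1*, *Clec9a*, *Cd209a*, *Itgae* and *Wdfy4* are lower, while *Flt3* and *Zbtb46* are higher.

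MM cells held almost none of the 8 genes. In 50260 cells with 167346430 UMIs, *Ccl19* and *Ccr7* had 0, which allows up to 0.0179 CPM, *Ccl21a* had 5, *Cxcr4* 6, *Cxcr5* 10, *Ackr3* 32 and *Cxcl12* 58. Of the 85 *Cxcl13* UMIs in MM cells, all were in the metastasis TME libraries, and 0 were in the sorted MM libraries. No member had enough UMIs to be tested between sorted metastasis and primary tumor MM cells. In that comparison 0 of 14292 genes passed with edgeR, 395 had an unadjusted p under 0.05, and DESeq2 called 27. With the replicate number as a block, edgeR called 123.

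Further homeostatic chemokine genes, 19 in a list written with earlier results known, were mostly too low or did not pass. In fibroblasts 5 of the 19 were tested, and none passed in any of the 3 comparisons (median log2 difference 0.07, −0.61 and 0.35, beside 0.04, −0.00239 and −0.03 over all genes), where 0.998% (metastasis against primary tumor), 0.926% (metastasis against lung) and 11.9% (primary tumor against lung) of all genes tested were called. With the replicate number as a block, the first comparison gave 168 calls instead of 111. The 4 members tested there other than *Cxcl13* did not pass either. In blood endothelial cells 4 of the 19 were tested (median −0.45 against primary tumor and −0.54 against lung, beside 0.07 and 0.01 over all genes). *Ackr1*, which encodes the atypical chemokine receptor of postcapillary venules, was lower in metastasis, at 2.85 to 12.3 CPM in 3 libraries, than in primary tumor, at 120 to 179 CPM in 4 libraries (log2 difference −4.60, SE 0.62, edgeR adjusted p = 0.000367). This call held under all 18 alternatives in which it was tested, with a difference of −5.25 without metastasis replicate 6. The primary tumor UMIs were not in the subclusters named endothelial, where *Ackr1* had 0 UMIs in all 4 primary tumor libraries and was too low to be tested. Lymphatic cells were the majority in these subclusters in every primary tumor library, so the counts of 0 cover few blood endothelial cells. The subcluster of 290 cells named by fibroblast markers also raised 3 of 6 venous markers, so blood endothelial cells may lie outside those named endothelial. In macrophages 7 were tested (median −0.20, beside −0.02 over all genes) and 2 passed, where 15.2% of all genes tested were called: *Cxcl14*, an epithelial and stromal chemokine, was higher in primary tumor than in lung (38.6 to 52.6 against 3.38 to 19.8 CPM, log2 difference 2.40, SE 0.50, adjusted p = 0.00689), and the scavenger *Ackr2* was lower, with 0 UMIs in both primary tumor libraries and 2.62 to 8.70 CPM in lung (adjusted p = 0.00342). The call was lost for *Cxcl14* without primary tumor replicates 1-3 and for *Ackr2* without replicate 4 (adjusted p = 0.0821 and 0.104). In subclusters named macrophage alone the difference of *Cxcl14* was 1.38 (adjusted p = 0.162), and *Ackr2* was too low to be tested.

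Of 25 genes that organize lymphoid stroma, in a list written in the same way, 13 were tested in fibroblasts (median log2 difference 0.11, −0.03 and −0.16 in the 3 comparisons). Between metastasis and primary tumor none passed. Against lung, *Mif*, a cytokine that also binds CXCR4, was higher in metastasis (378 to 756 against 63.3 to 81.4 CPM, log2 difference 3.05, SE 0.51, edgeR adjusted p = 0.0334, lost in 9 of 16 alternatives and at 3.48 without metastasis replicate 6, adjusted p = 0.0943). In primary tumor against lung 5 of the 13 passed, beside 11.9% of all genes, and 2 rose and 3 fell. *Mif* rose by 3.19 (SE 0.48, adjusted p = 0.0052) and *Relb*, the noncanonical NF-κB subunit, by 1.25 (SE 0.29, adjusted p = 0.0254). *Vcam1*, an adhesion molecule of organizer stroma, had a log2 difference of −2.26 (SE 0.44, adjusted p = 0.0135). *Tnfsf13b*, the B cell survival factor BAFF, had a log2 difference of −3.35 (SE 0.59, adjusted p = 0.0098), and the lymphotoxin gene *Ltb* one of −6.11 (SE 1.07, adjusted p = 0.00965), with 3 UMIs in primary tumor and 324 in lung. Leaving out primary tumor replicate 6 ended the call of *Ltb* (adjusted p = 0.0605), *Vcam1* (0.0733) and *Relb* (0.109), and that of *Relb* was lost in 5 of 16 alternatives. *Relb* was at a mean of 28.1 CPM over the 2 metastasis libraries, 48.9 CPM over 3 primary tumors and 22.3 CPM over 3 lungs. The melanoma marker list in the same fibroblast sums was at 1608 to 6062 CPM in primary tumor, 1676 to 6095 CPM in metastasis and 237 to 652 CPM in lung, and moved with *Mif*. The macrophage list was at 101 to 1486 CPM in primary tumor and 2118 to 8752 CPM in lung and the B cell list at 0 to 12.4 and 21.8 to 1105 CPM, and both moved with *Ltb* and *Tnfsf13b*. The neutrophil list overlapped, at 5.24 to 47.1 and 3.01 to 6492 CPM. The part of these lists in the results was not tested. Without the subclusters led by genes of other cell types, the difference was −5.66 for *Ltb* (edgeR adjusted p = 0.0112) and −3.41 for *Tnfsf13b* (0.00295). The unnamed F1, with 682 of 2400 cells of lung replicate 6, is not counted among those subclusters. It raised 3 of 4 alveolar fibroblast markers, but the monocyte marker *Ly6c2* and the B cell marker *Ighm* were among its 10 leading genes. Its part in these differences was not tested.

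In blood endothelial cells 12 of the 25 were tested (median 0.34 against primary tumor and −0.41 against lung). Of them 1 passed against primary tumor, beside 4.03% of all genes, and 2 against lung, beside 8.41%. *Pdpn*, the podoplanin gene of lymphatic and reticular cells, was lower in metastasis than in primary tumor (0 to 9.84 against 22.8 to 133 CPM, log2 difference −3.19, SE 0.69, edgeR adjusted p = 0.0117), a call lost without metastasis replicate 5 (0.109) and kept without replicate 6 (−3.42, 0.0295). Of the class, lymphatic cells made up 0 of 24, 7 of 624 and 9 of 102 cells in metastasis replicates 4, 5 and 6 and 7 of 43, 9 of 127, 21 of 116 and 17 of 256 in primary tumor replicates 1-3, 4, 5 and 6, and without them *Pdpn* was too low to be tested. In the cells of subclusters named endothelial, lymphatic cells included, its difference was −2.45 (adjusted p = 0.0377). Against lung, *Mif* was higher (192 to 912 against 33.6 to 79.4 CPM, log2 difference 3.33, adjusted p = 0.000598) and *Bst1* lower (45.0 to 154 against 185 to 343 CPM, log2 difference −1.46, adjusted p = 0.0324) in metastasis, and the call of *Bst1* was lost without metastasis replicate 5 or 6 (−1.53, 0.0698, without 6) or lung replicate 4. Without metastasis replicate 6 the difference of *Mif* was 3.65 (0.000399). In the cells of subclusters named endothelial alone, *Mif* (2.35, adjusted p = 0.0150) passed and *Bst1* (−1.16, 0.340) did not. The melanoma list was at 644 to 9430 CPM in these metastasis sums and 70.7 to 116 CPM in lung, and its part in the *Mif* result was not tested. In macrophages of primary tumor against lung 17 were tested (median 0.23), of which 4 passed, beside 15.2% of all genes: *Tnfrsf11a* (RANK), *Pdpn* and *Mif* were higher and *Ltb* lower, with log2 differences of 1.74, 2.45, 3.03 and −3.04. The edgeR adjusted p-values were 0.000910, 0.00393, 0.000524 and 0.00876. Without primary tumor replicates 1-3 the calls of *Pdpn* (0.0628) and *Ltb* (0.107) were lost, and without replicate 4 that of *Ltb* (0.0987). In subclusters named macrophage alone *Pdpn* (2.53, 0.00607), *Mif* (3.00, 0.000454) and *Ltb* (−3.77, 0.0330) passed and *Tnfrsf11a* did not (0.81, 0.193). In lung replicate 6, 827 of 8818 cells of the class were in subclusters that raised T cell markers and 62 in one that raised B cell markers, against 1 and 0 of 2252 in primary tumor replicate 4. The T cell list in the macrophage sums was at 46.7 to 59.7 CPM in primary tumor and 16.4 to 268 CPM in lung, the B cell list at 92.3 to 143 and 37.4 to 398 CPM, and the melanoma list at 909 to 957 and 163 to 352 CPM. Their part in these results was not tested.

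The genes whose levels were most like each member were found over 110 sums of at least 20 cells of a class in a library, among 16606 genes, by Pearson's r of log2(CPM + 1). These sums share libraries and cell classes, so r is a description and has no p. For *Cxcl13* the highest r were low, at 0.61 (*Gm8113*), 0.57 (*Upk3b*) and 0.57 (*Pnoc*). For *Cxcl12* they were 0.87 (*Msrb3*), 0.87 (*Palmd*) and 0.86 (*Ntn1*), and for *Ackr3* 0.86 (*Mmrn2*), 0.86 (*Lrrc32*) and 0.85 (*Ntn1*). *Ccl21a* was most like *Mmrn1*, a lymphatic gene, at 0.94, followed by *Hoxd4* and *Hoxd9* at 0.83 each. *Cxcr4* was most like the leukocyte genes *Hcls1* (0.87), *Samsn1* (0.86) and *St8sia4* (0.86), *Cxcr5* like *Cacna1i* (0.81), the B cell kinase gene *Blk* (0.80) and *Ffar1* (0.80), and *Ccr7* like the lymphocyte gene *Slamf6* (0.89), *Ccr6* (0.84) and *BE692007* (0.84). *Ccl19* had under 100 UMIs and was not ranked.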

How the data were processed

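Single-cell libraries were made with the 10x Genomics 3′ kit v3.1. The deposited table holds raw counts of UMIs per gene and cell, which the authors made with Cell Ranger 6.1.1 on GRCm38 (mm10) and filtered by quantiles of detected genes and of mitochondrial and ribosomal UMIs with Seurat 3.2.2. The counts are not normalized, and the deposited percentages of mitochondrial UMIs per cell (percent, by the authors) were not used further. A table of log-normalized values by the authors was not used. Of 110283 barcodes under 24 library names, 9924 under 5 names repeated others and were removed. Cells were clustered with Seurat 5.3.0 in R 4.3.3 (2000 variable genes, 17 principal components, 12 for fibroblasts and endothelium, 20 neighbors, resolution 0.5). A cluster was named where at least 3 listed markers had a log2 fold above 1 and were found in at least 10% of its cells. Doublets were not removed. Counts were summed per library and class (at least 20 cells), 1 fit per class over the 3 tissues, with edgeR 4.0.16 (filter by expression, TMM, quasi-likelihood F test, Benjamini-Hochberg over all genes tested, calls at an adjusted p under 0.05). DESeq2 1.42.0 was an alternative. Python 3.11.15, numpy 2.4.6, pandas 2.3.3 and scipy 1.17.1 were used.

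Depth was 1777036 to 60339415 UMIs per library. Intervals are exact at 95% and cover counting error only, and a count of 0 allows up to 3 counts. Where a thinned share is given, each cell was reduced at random to 1000 UMIs and shallower cells were left out. The 8 members, the 2 gene lists and the marker lists were chosen with earlier results of these data known. Named genes are the members, the genes of both lists that passed, and the 3 genes most like each member with at least 100 UMIs. Genes that illustrate differences between cells with and without a member's UMI come from the marker lists, except *H2-Eb1*, which was chosen after its values were seen. On simulated counts of the fibroblast comparison of metastasis and primary tumor (11125 genes, 200 changed 8-fold), 72.0% of changed genes were recovered, none in the wrong direction. There were 11 false calls, 7.10% of all calls. The changed genes were drawn from those with at least 200 UMIs, so the recovery does not cover rarer genes. By library name, the tumor and the metastasis of replicate 5 are from 1 mouse, and so are those of replicate 6. Their deviations from the group means correlated at −0.12 and −0.06 in fibroblasts and 0.10 and 0.07 in blood endothelial cells. Those of the sorted MM libraries, where replicate 5 is from 1 mouse and replicate 4 from separate mice of 1 run, correlated at 0.42. Within a group, replicates are separate mice by library name. The pooled replicates 1-3 of both sites share mice, replicate 4 does not, and the MM libraries come from mice of the TME libraries. Fits on named subclusters alone, for blood endothelial cells and macrophages, were added after seeing the data. Gene positions are from GENCODE mouse release M21, promoters from RefSeq.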

Additional observations from a re-analysis of the deposited data

Results flagged for a closer look

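Of 18 groups of 4 or more libraries examined, 2 held a library far from the others, where chance would give about 1 in 20. *Cxcl13* in macrophage sums of unchallenged lung was at 152 CPM in replicate 1 and at 2.63 to 16.5 CPM in the other 3 libraries. A single cell held 231 of the 232 *Cxcl13* UMIs of replicate 1. *Cxcr4* in the same sums was lowest in replicate 1, at 47.9 CPM, against 114 to 123 CPM in the others.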

How the results depend on the processing

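Counts of genes called were the values most dependent on the processing. Fibroblasts of metastasis against primary tumor gave 111 calls, and 314 with DESeq2, 333 without a filter, 190 with at least 10 cells, 51 without the mesothelial-like subcluster, 198 without subclusters led by other cell types, and 2 to 356 leaving out 1 library. Metastasis against lung gave 103, and 526, 648, 56, 3 and 247 under the same 5 settings, 22 within replicates 5 and 6, and 7 to 306 leaving out 1 library. Its share of higher calls fell from 91.3% to 61.0% with DESeq2 and 54.9% without a filter. Primary tumor against lung gave 1320, and 2389 without a filter, 867 within replicates 5 and 6, and 376 to 1320 leaving out 1 library. Blood endothelial cells gave 336 against primary tumor (772 without a filter, 204 to 338 leaving out 1 library) and 701 against lung (1449, 1482 within replicates 5 and 6, 136 to 1307). Macrophages gave 1697 (2701, 279 to 2131), and the fit within replicates 5 and 6 was not run because no primary tumor library remained. MM cells gave 0, and 27 with DESeq2, 1 with RLE size factors, 73 without a filter and 0 to 33. Leaving out 1 library moved the first count by over 1.5 times for every library except lung replicates 4 and 5, and the second for every one except primary tumor replicate 4 and lung replicate 5. The share of metastasis fibroblast *Cxcl13* in the mesothelial-like subcluster was 99.4 to 100% leaving out 1 library and 99.3% or more in the other clusterings.

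With the replicate number as a block, counts moved to 168 (fibroblasts, metastasis against primary tumor), 447 (blood endothelial cells against lung), 1070 (macrophages) and 123 (MM cells). By library name the lung libraries are from other mice than the tumors and metastases, so against lung the block is no pairing of animals. Of the tested members, *Ackr3* of blood endothelial cells against lung lost its call with this block (−1.39, edgeR adjusted p = 0.111). *Ccl21a* (adjusted p = 0.0123) and *Cxcr4* (0.0153) of fibroblasts in primary tumor against lung gained one. *Mif* in fibroblasts of metastasis against lung lost its call (0.0589).

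Differences that did not pass the test changed sign or went to 0 in 18 cases. For *Cxcr4* in fibroblasts of metastasis against primary tumor these were 0.0675 with the block, between −5.95 and 4.98 leaving out 1 library (the latter without primary tumor replicate 6), and 0.20 without mesothelial-like cells. For *Ccl21a* in fibroblasts against lung the difference ran from 0 (without metastasis replicate 6) to 5.64 leaving out 1 library and was 0 without mesothelial-like cells, where no UMI was left, and for *Cxcl12* −0.63 in the latter. *Ackr3* ran from −1.46 to 0.31 in fibroblasts of primary tumor against lung, turning without lung replicate 5. In blood endothelial cells *Ackr3* ran from −0.58 to 0.21 leaving out 1 library (turning without metastasis replicate 5), *Cxcr4* from −0.37 (without replicate 6) to 0.51 against primary tumor, and *Ccl21a* from −0.0122 (without replicate 6) to 2.49 against lung. In macrophages *Cxcl13* gave 1.72 with the block. Leaving out 1 library, it ran from −3.78 to 0.75 (turning without lung replicate 1), *Ccr7* from −1.74 to 0.11 (without primary tumor replicates 1-3, also above 0 without lung replicate 4), and *Cxcr4* from −1.26 to 0.60 (without primary tumor replicate 4, also above 0 without lung replicate 4). The cause of these changes was not tested. Fits on the subclusters named endothelial or macrophage alone, added after seeing the data, gave 138 and 57 calls in blood endothelial cells against primary tumor and lung and 442 in macrophages. There *Ackr3* turned to 0.57 against primary tumor and *Cxcr4* to 0.14 in macrophages. Most of the cells named endothelial were lymphatic in primary tumor but not in metastasis. The fits without lymphatic endothelial cells, added likewise, kept the calls of *Cxcl12* (1.70, adjusted p = 0.0158) and *Ackr3* (−1.92, 0.0353). Few libraries per group and rare cell types limit all comparisons.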
